A study of Mus musculus with 4 samples.

Results

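Small leucine-rich proteoglycans (SLRPs) are secreted proteins of the extracellular matrix built around a run of leucine-rich repeats. The 8 genes described here are Dcn (decorin), Bgn (biglycan), Fmod (fibromodulin), Lum (lumican), Prelp, Omd (osteomodulin), Ogn (osteoglycin) and Aspn (asporin), chosen by their gene symbols from the 18298 genes listed in at least 1 library. All 8 were read in every library, and all 8 were among the 14123 genes that had enough reads to be tested. The question addressed was how the level of each of them differed between rib chondrocytes of mice bred for Cre deletion of Senp6 and of control mice. Senp6 is a protease that removes SUMO2/3 chains from proteins.

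SLRPs bind the surface of collagen fibrils, where they limit fibril width and set the spacing between fibrils, and several of them also hold growth factors of the TGF-β family in the matrix. Class I holds Dcn, Bgn and Aspn. Decorin and biglycan carry chondroitin or dermatan sulfate chains, whereas asporin has a stretch of aspartate residues and lacks such a chain. Class II holds Fmod, Lum, Prelp and Omd, of which fibromodulin, lumican and osteomodulin can carry keratan sulfate, and Ogn belongs to class III. In cartilage and in the tissues around it (perichondrium, tendon, bone surface) the family is part of the matrix that the cells lay down.

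Chondrocytes came from rib cartilage of E18.5 embryos of the C57BL/6 background and were cultured to passage 1. The control group was Senp6f/f, which carries the floxed Senp6 alleles without Cre, and the mutant group was Dermo1-Cre;Senp6f/f. All 4 libraries thus carry the floxed alleles. No group carried Cre alone, so an effect of Cre itself cannot be told apart from that of the Senp6 deletion. Dermo1-Cre is expressed from the Dermo1 (Twist2) locus in mesenchymal progenitors of cartilage and bone. There were 2 libraries per group, and as the labels do not say whether they came from separate embryos, p-values measure only the spread between these libraries. Each library is a bulk culture, in which fewer cells of a type and less RNA per cell cannot be told apart.

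The libraries held between 21.02 M and 30.99 M reads counted on genes. RPKM values (the reads of a gene scaled by its length and by the reads counted in the library) are given below for control 1, control 2, mutant 1 and mutant 2, in that order. Senp6 itself had an RPKM of 10.84 and 18.02 in the controls and 12.02 and 8.07 in the mutants, so the groups overlapped (log2 fold change -0.56, SE 0.28, edgeR adjusted p = 0.409). The counts cover the whole gene and do not separate the floxed exons, so they do not show the deletion, and mutant and control are the labels of the libraries. The control libraries differed from each other more than the mutant libraries did, with a biological coefficient of variation of 0.208 against 0.121. Among markers of chondrocytes, 13 of 15 were lower in both mutants than in both controls (22.8% of all tested genes were), and their summed RPKM was 916 and 918 against 423 and 569. Col2a1, the collagen that defines cartilage, was at 609 and 659 RPKM in the controls and 334 and 445 in the mutants. RNA of this chondrocyte marker was thus present in every library. Col1a1 and Col3a1, which are not among the chondrocyte markers, were above Col2a1 in every library. Col1a1 was at 7253 and 4961 RPKM in the controls and 4828 and 3311 in the mutants. Col3a1 was at 1417 and 934 against 872 and 492 RPKM. The share of chondrocytes in each culture was not tested.

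Of the 8 SLRP genes, 7 had lower levels in both mutants than in both controls, and Bgn, the most abundant of them, had a higher level in both mutants. Their log2 fold changes were below 0 for the same 7, against 48.6% of all genes tested. These counts of groups that do not overlap were made on library-scaled counts (TMM), where 22.8% of all tested genes were lower in both mutants and 25.4% were higher. No SLRP gene passed an adjusted p of 0.05 in edgeR's quasi-likelihood test with Benjamini-Hochberg adjustment over all genes, and of all tested genes 0.0% passed it in either direction. At an unadjusted p under 0.05, 5 SLRP genes were lower in the mutants (Dcn, Lum, Omd, Ogn and Aspn) and 0 were higher, against 6.28% and 9.29% of all genes tested. In DESeq2, 1 SLRP gene (Aspn) was called lower at an adjusted p under 0.05, against 1.86% of all genes. The median log2 fold change of the 8 genes was -0.65, and that of all genes tested was 0.0097. It was -0.42 without control 1 and -0.86 without control 2. With 1 library left out, its group has a single library, the spread comes from the other group alone, and the lone library is assumed to vary like that pair, so the adjusted p-values given below for such fits are not replicated evidence in that group.

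**Figure D1:**
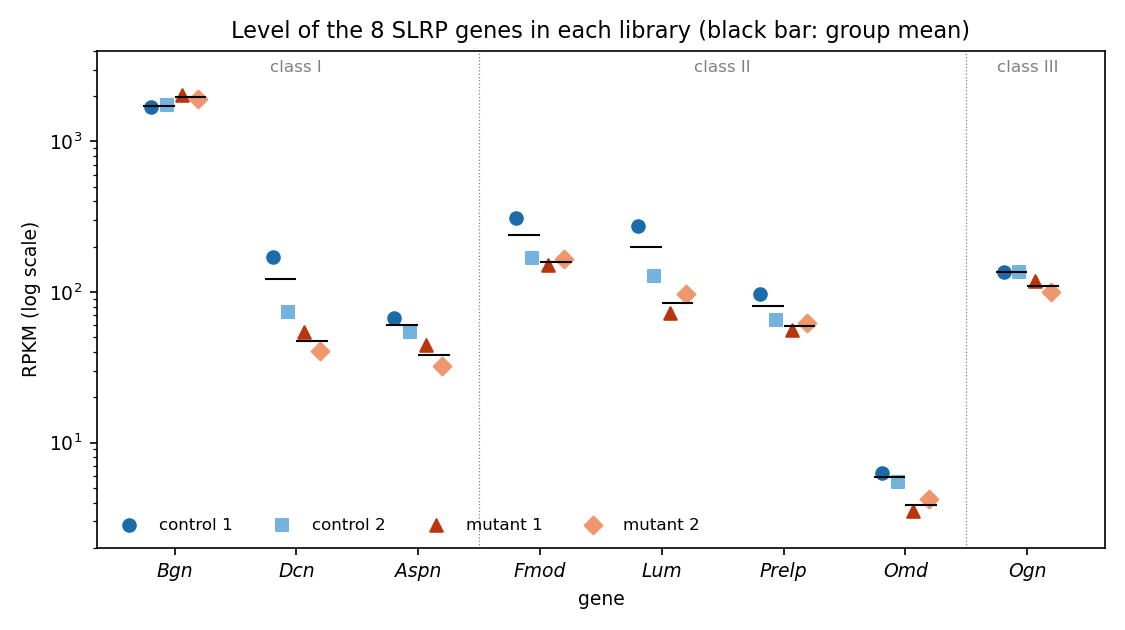
RPKM of the 8 SLRP genes on a log axis, with 1 point per library (circles and squares, control 1 and 2; triangles and diamonds, mutant 1 and 2), black bars at the mean of each group, and dotted lines between the classes. Bgn lies between 1683 and 2033 RPKM and is the only gene with both mutants above both controls, and control 1 is far above control 2 for Dcn, Fmod and Lum.

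Bgn encodes biglycan, a class I SLRP that binds collagen and members of the TGF-β family. Its RPKM was 1683 and 1749 in the controls and 2033 and 1925 in the mutants. Both mutants were above both controls, and the 2 controls were close to each other. The group means were 1716 ± 46.9 and 1979 ± 76.4 (SD, n = 2 each), and the fitted difference was 0.16 on the log2 scale (SE 0.13, edgeR adjusted p = 0.614), which the test did not separate from the spread between libraries. Bgn ranked 22, 19, 11 and 14 among all genes by RPKM in the 4 libraries, and it rested on 84500 to 150531 reads. Bgn is on the X chromosome, and the libraries came from embryos of both sexes, with Xist at 22.4 RPKM in mutant 2 and at most 0.0107 in the other 3. The Bgn level of mutant 2 lay between those of control 2 and mutant 1, and the part of embryo sex in these levels was not tested.

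Dcn encodes decorin, the closest relative of biglycan. The RPKM of Dcn was 170 and 73.6 in the controls and 54.0 and 40.9 in the mutants. Control 1 stood well above the other 3 libraries, and both mutants were below control 2. The fitted level was 2.66 times as high in the controls as in the mutants (log2 fold change -1.41, SE 0.39, unadjusted p = 0.0097, edgeR adjusted p = 0.167). The 2 controls themselves differed 2.31-fold in RPKM. Without control 1 the log2 fold change was -0.65, and without control 2 it was -1.94. The size of the difference thus depended on which control was kept. By RPKM rank among all genes, Dcn was at 338 in control 1, 957 in control 2, 1310 in mutant 1 and 1853 in mutant 2.

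Aspn encodes asporin, which binds collagen and TGF-β1. Its RPKM was 67.6 and 54.0 in the controls and 44.2 and 32.4 in the mutants. The groups did not overlap, and the controls differed by less than in the case of Dcn (1.25-fold in RPKM). The log2 fold change was -0.71 (SE 0.21, unadjusted p = 0.0126, edgeR adjusted p = 0.184). Aspn was the 1 SLRP gene for which DESeq2 gave an adjusted p under 0.05 (log2 fold change -0.72, adjusted p = 0.0341). With 1 library left out, its edgeR log2 fold change lay between -0.97 and -0.48.

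Lum encodes lumican, known for its part in the regular fibril spacing of the cornea and also made by fibroblasts and chondrocytes. The Lum RPKM was 273 and 128 in the controls and 72.4 and 97.5 in the mutants. As with Dcn, control 1 was far above control 2, and both mutants were lower than control 2. The level was 2.45 times as high in the controls by the fit (log2 fold change -1.29, SE 0.36, unadjusted p = 0.00952, edgeR adjusted p = 0.166), while the 2 controls differed 2.13-fold in RPKM. Without control 1, the log2 fold change was -0.61 (adjusted p = 0.0711), and without control 2 it was -1.79 (adjusted p = 1.60e-04 for 1 control against 2 mutants).

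Fmod encodes fibromodulin, a keratan sulfate SLRP abundant in tendon and cartilage. Fmod had an RPKM of 309 and 168 in the controls and 151 and 166 in the mutants. Control 2 and mutant 2 were nearly equal, and only control 1 stood apart. The log2 fold change of -0.64 (SE 0.29, edgeR adjusted p = 0.353) was smaller than the difference between the 2 controls on the same scale (0.94). Without control 1 it was -0.10, and without control 2 it was -1.06.

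Prelp encodes a class II SLRP without a glycosaminoglycan chain, whose basic amino terminus binds heparan sulfate. Its RPKM of 97.3 and 65.2 in the controls compared with 56.3 and 62.3 in the mutants. The pattern was that of Fmod, with control 1 apart and control 2 only slightly above mutant 2. The log2 fold change was -0.50 (SE 0.21, edgeR adjusted p = 0.328), and the 2 controls differed by 0.63 on that scale. Without control 1 the log2 fold change was -0.16, and without control 2 it was -0.81.

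Omd encodes osteomodulin, a keratan sulfate SLRP first known from bone. It was the lowest of the 8, at 6.28 and 5.48 RPKM in the controls and 3.50 and 4.23 RPKM in the mutants, on 190 to 251 reads per library. The groups did not overlap, and within each group the libraries were close. The log2 fold change was -0.65 (SE 0.22, unadjusted p = 0.0207, edgeR adjusted p = 0.221), and with 1 library left out it lay between -0.80 and -0.53.

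Ogn encodes osteoglycin (mimecan), the class III member. Its RPKM was 136 and 136 in the controls and 118 and 100.3 in the mutants. The controls were nearly the same, and both mutants lay below them. The log2 fold change was -0.36 (SE 0.14, unadjusted p = 0.0381, edgeR adjusted p = 0.281), the smallest among the 7 genes with lower levels in the mutants. With 1 library left out it lay between -0.50 and -0.23.

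**Figure D2:**
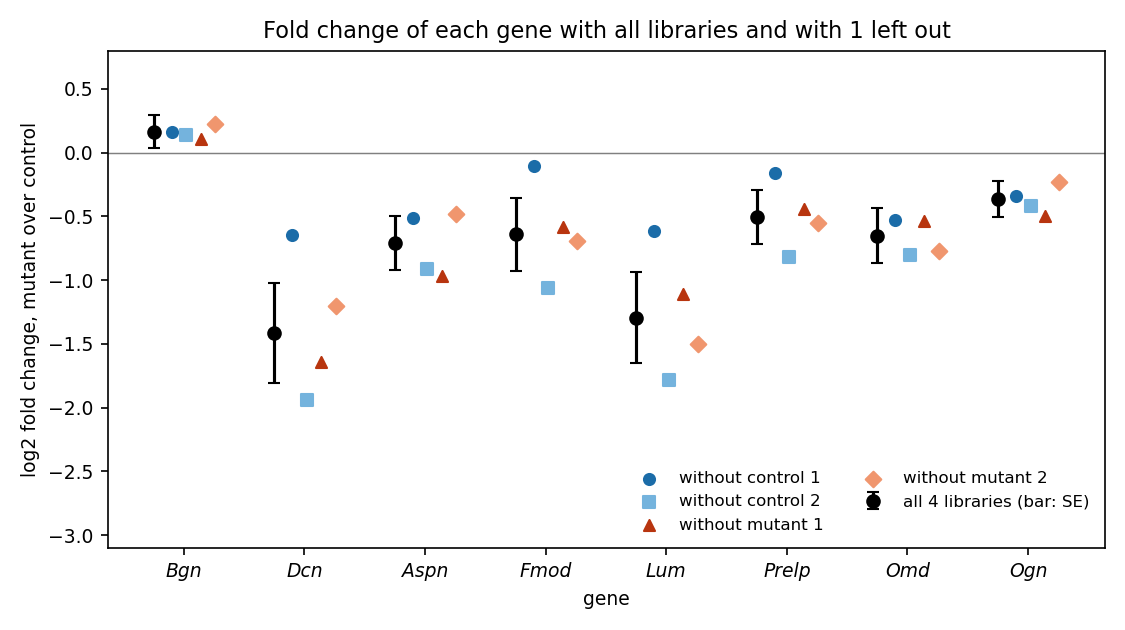
Log2 fold change of mutant over control for each SLRP gene in edgeR, with all 4 libraries (black points, bars 1 SE) and with 1 library left out (coloured points). The 7 genes other than Bgn stay below 0 in each case, and the points without control 1 are the closest to 0 for Dcn, Lum, Fmod and Prelp.

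The 7 lower genes thus differed in how much they varied within the control group. All 8 SLRP genes had a higher level in control 1 than in control 2 on the TMM scale, though for Bgn the difference rounded to 0.00 on the log2 scale, and 4 of 8 were higher in mutant 1 than in mutant 2. The median absolute difference between the controls was 0.51 on the log2 scale for the SLRP genes and 0.26 for all genes tested. Between the mutants it was 0.25 for the SLRP genes and 0.14 for all genes tested. Without control 2, where control 1 alone stood for the controls and the spread was that of the mutant pair, 6 SLRP genes were called lower at an adjusted p under 0.05 (10.3% of all genes were), and without control 1, 0 were (0.992% of all genes). Without mutant 1, 1 SLRP gene (Aspn, adjusted p = 0.0384) was called lower (0.634% of all genes), and without mutant 2, 0 were (0.27% of all genes). At an unadjusted p under 0.05, 7 SLRP genes were lower without control 2 (17.2% of all genes), 4 without control 1 (5.48% of all genes), 1 without mutant 1 (3.46% of all genes) and 0 without mutant 2 (3.01% of all genes). With a replicate block in the fit, 0 were called at an adjusted p under 0.05 (0.234% of all genes). Fmod and Prelp are the pair whose group difference was smaller than the difference between the controls. For Aspn, Omd and Ogn it was larger, by 0.71 against 0.38, 0.65 against 0.25 and 0.36 against 0.06 in absolute size on the log2 scale.

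**Figure D3:**
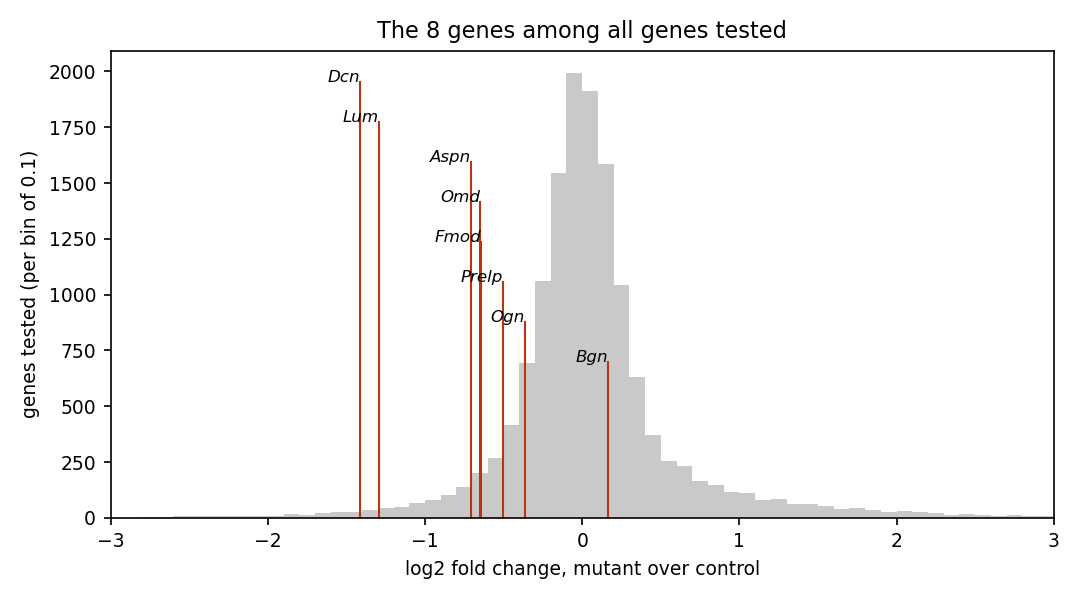
Histogram of the log2 fold changes (mutant over control, bins of 0.1) of all 14123 genes tested, cut off at 3 on either side, with a red line at the value of each SLRP gene (line heights are set only to part the names). Dcn and Lum lie in the low tail, Bgn lies among the bulk of genes near 0, and the other 5 lie between -0.71 and -0.36.

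In the distribution of all tested genes, 1.20% had a lower log2 fold change than Dcn and 1.48% a lower one than Lum. For Aspn, Omd and Fmod these shares were 4.74%, 5.47% and 5.59%. Prelp and Ogn followed with 8.06% and 12.7%, and Bgn with 69.9%. Among the 8 genes, Dcn and Lum thus had the lowest values.

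The family total overlapped between the groups, whereas the share of each of the 8 genes in it did not (exact permutation p = 0.33 for each). The Bgn share was higher in both mutants, and the shares of the other genes were lower. The summed RPKM of the 8 genes was 2742 and 2380 in the controls and 2531 and 2429 in the mutants, and the groups overlapped (exact permutation test, two-sided, p = 1.0). Without Bgn the sum was 1059 and 630 in the controls and 498 and 504 in the mutants, with both mutants below both controls (exact permutation test, two-sided, p = 0.33, the smallest p that 2 against 2 libraries allow). Bgn made up 61.4% and 73.5% of the summed RPKM in the controls and 80.3% and 79.3% in the mutants. Dcn made up 6.21% and 3.09% in the controls and 2.13% and 1.68% in the mutants. The ratio of Bgn to Dcn in RPKM was 9.88 and 23.8 in the controls and 37.6 and 47.1 in the mutants, and that of Bgn to Lum was 6.17 and 13.7 against 28.1 and 19.7. Neither ratio overlapped between groups (exact permutation p = 0.33 for each). That follows from Bgn being higher, and Dcn and Lum lower, in both mutants, so these ratios add no separate result. The shares rest on the same levels and add none either.

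**Figure D4:**
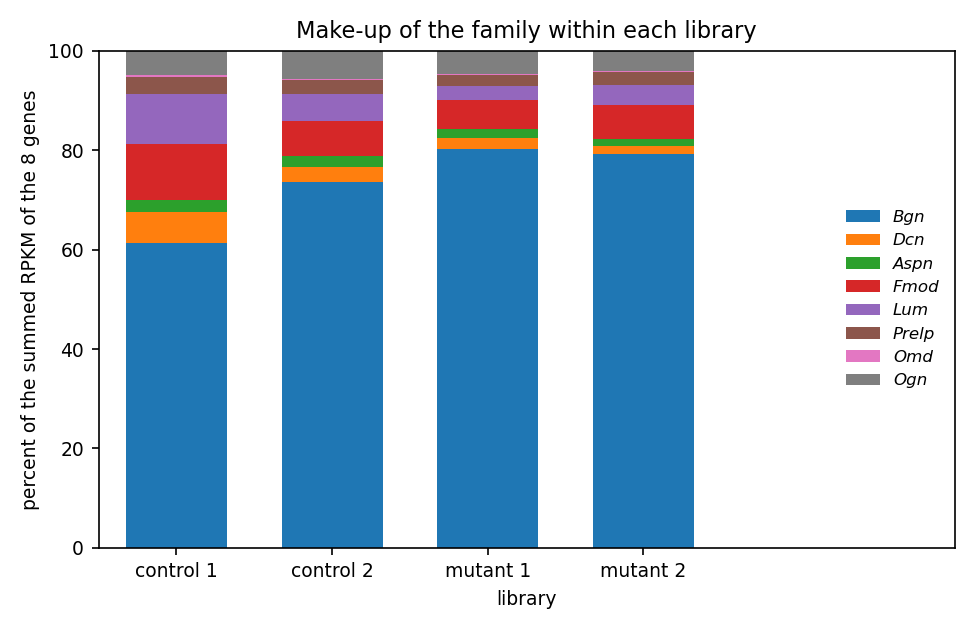
Share of each SLRP gene in the summed RPKM of the 8 genes (percent), with 1 stacked bar per library. Bgn takes 61.4% in control 1, 73.5% in control 2 and 80.3% and 79.3% in the mutants, and the shares of Dcn and Lum are widest in control 1.

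Ratios between genes with lower levels in the mutants were compared as well. Fmod over Prelp was 3.17 and 2.57 in the controls and 2.68 and 2.67 in the mutants. Lum over Dcn was 1.60 and 1.74 in the controls and 1.34 and 2.39 in the mutants, and these groups overlapped too. Ogn over Aspn was 2.01 and 2.52 in the controls and 2.66 and 3.09 in the mutants. Ogn over Dcn was 0.80 and 1.85 in the controls and 2.18 and 2.45 in the mutants. Neither of these 2 ratios overlapped between groups (exact permutation test, two-sided, p = 0.33 for each, the smallest p that 2 against 2 libraries allow). In the order of RPKM levels, Bgn came at rank 1, Fmod at rank 2, Aspn at rank 7 and Omd at rank 8 in all 4 libraries. Dcn went from rank 4 and 5 in the controls to rank 6 in both mutants, where it was below Prelp. Ogn, at rank 5 in control 1, was at rank 3 in the other libraries. The control means were 238 ± 99.6 for Fmod, 200 ± 102 for Lum, 136 ± 0.062 for Ogn, 122 ± 68.4 for Dcn, 81.3 ± 22.6 for Prelp and 60.8 ± 9.65 RPKM for Aspn (SD, n = 2 each). Each differed from the next by less than the larger SD of the pair, so these means alone do not resolve the order. Within each control library, however, Fmod was at rank 2, Prelp at rank 6 and Aspn at rank 7. Lum was above Dcn in both controls, and only Ogn changed its place relative to them. In the mutants the means were 158 ± 11.1 for Fmod, 109 ± 12.2 for Ogn, 85.0 ± 17.8 for Lum, 59.3 ± 4.26 for Prelp, 47.4 ± 9.31 for Dcn and 38.3 ± 8.35 for Aspn. There Dcn and Aspn were the only neighbours that differed by less than the larger SD. Omd (5.88 ± 0.561 RPKM in the controls and 3.86 ± 0.512 RPKM in the mutants) was far below Aspn in both groups.

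Most SLRP genes lie in clusters, and neighbours were compared. Positions are those of the GRCm38 annotation, matched by Entrez Gene identifier, since the files hold no coordinates and the submitters' notes name mm9. Dcn (chromosome 10, 97479609 to 97518143) and Lum (97565128 to 97572703) are both on the plus strand, 47.0 kb apart with no coding gene between them, and they had the lowest log2 fold changes of the 8. Prelp (chromosome 1, 133910304 to 133921414, minus strand) and Fmod (134037254 to 134048277, plus strand) are 116 kb apart. Their log2 fold changes were -0.50 and -0.64, and both genes were close to equal in control 2 and mutant 2. Aspn (chromosome 13, 49544443 to 49567565), Omd (49582462 to 49592822) and Ogn (49608046 to 49624501) stand in a row on the plus strand, and none of them differed between the controls as Dcn did. Their log2 fold changes were -0.71, -0.65 and -0.36. The Omd value was thus nearer to that of Fmod on chromosome 1 than to that of its neighbour Ogn. Whether neighbours change together was not tested. Bgn (chromosome X, 73483602 to 73495933, plus strand) is alone. Aspn, Omd and Ogn lie inside Cenpp on the opposite strand with at most 7 shared exonic bases. Prelp shares 350 exonic bases (9.68% of its exons) with the antisense gene Gm15851. As the counting is not stated to use strand, reads there cannot be told apart.

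The sequence before the start of the gene is shown for Bgn, the only member with a higher level in both mutants, and for Aspn, the member that DESeq2 called lower. This choice was made after their values were seen. Both are 250 bases from RefSeq on GRCm38.p6, 5′ to 3′ on the strand of the gene, with chrX:73483351-73483600 (plus strand) for Bgn and chr13:49544193-49544442 (plus strand) for Aspn. The capitals mark each match to GGGCGG, the GC box, in Bgn and to TATAAA, the TATA box, in Aspn, on either strand.
Bgn: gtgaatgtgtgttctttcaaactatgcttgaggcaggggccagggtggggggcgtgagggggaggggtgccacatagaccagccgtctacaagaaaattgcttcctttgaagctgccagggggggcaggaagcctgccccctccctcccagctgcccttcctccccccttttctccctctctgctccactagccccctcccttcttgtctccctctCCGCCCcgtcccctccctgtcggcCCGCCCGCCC
Aspn: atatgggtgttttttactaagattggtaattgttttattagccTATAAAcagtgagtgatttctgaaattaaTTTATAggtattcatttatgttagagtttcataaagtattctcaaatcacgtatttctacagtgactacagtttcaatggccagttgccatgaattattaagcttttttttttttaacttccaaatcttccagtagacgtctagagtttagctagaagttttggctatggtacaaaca
The Bgn sequence had a GC content of 64.4% and 3 matches to GGGCGG, all within the last 34 bases before the start, of which 2 overlap. The Aspn sequence had a GC content of 30.0%, no match to GGGCGG, and 2 matches to TATAAA, which begin 207 and 178 bases before the start. Of the 32851 promoters in the table, 32.7% held GGGCGG and 12.4% held TATAAA in the same window, and the median GC content was 52.4%. RefSeq entries were found for 6 of the 8 genes. Ogn (GC content 42.0%) held TATAAA as well, and Fmod (51.2%), Prelp (55.6%) and Omd (38.4%) held neither motif. TGANTCA (AP-1) and CAGACA (SMAD), searched on both strands, had no match in these 6 windows and were found in 6.75% and 17.1% of all promoters. A match is a description of the letters and not of a bound site.

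Other genes of the SLRP family and close relatives were far less abundant. Of 10 listed, 8 were tested, and 4 of these were lower in both mutants than in both controls and 2 higher, against 22.8% and 25.4% of all genes tested. Epyc (epiphycan, a cartilage class III SLRP, 71.4 kb from Lum) was at 7.13 and 9.08 RPKM in the controls and 2.28 and 3.45 RPKM in the mutants, a log2 fold change of -1.54 (SE 0.26, edgeR adjusted p = 0.0871). Chad (chondroadherin, a cartilage protein that binds collagen) was at 3.20 and 3.06 RPKM against 1.19 and 1.14 RPKM, a log2 fold change of -1.47 (SE 0.26, adjusted p = 0.0884). Epyc and Chad were the 2 relatives with an adjusted p under 0.1, which 0.503% of all tested genes had in the lower direction, and no SLRP gene of the main 8 had one. The log2 fold changes of Ecm2, Podnl1 and Chadl were -0.76, -0.67 and -0.85 (adjusted p = 0.272, 0.162 and 0.455). Those of Podn and Tsku were -0.13 and 0.14 (adjusted p = 0.868 and 0.656). Optc, which lies 2.30 kb from Prelp, was at 1.62 and 1.63 RPKM in the controls and 3.17 and 2.19 RPKM in the mutants, with a log2 fold change of 0.68 (SE 0.29, adjusted p = 0.331), so it was higher in both mutants while its neighbour Prelp was lower. Kera and Nyx had 1 to 12 reads per library and were not tested.

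For the 14 collagens that SLRPs bind, the median log2 fold change was -0.61, beside -0.65 for the SLRP genes. Of the 14, 10 were lower in both mutants than in both controls and 1 was higher (22.8% and 25.4% of all genes), and 8 were lower at an unadjusted p under 0.05 (6.28% of all genes). Col11a2, a cartilage collagen, had the lowest log2 fold change at -2.12 (adjusted p = 0.0737), and that of Col2a1 was -0.75 (adjusted p = 0.114). Col12a1, a collagen that sits on the fibril surface, was the 1 gene higher in both mutants (log2 fold change 0.32, adjusted p = 0.407).

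The enzymes that build the glycosaminoglycan chains did not have medians as low. Of 6 enzymes for the linkage region, 2 were lower at an unadjusted p under 0.05 and 0 were higher (6.28% and 9.29% of all genes tested). Their median log2 fold change was -0.19. Xylt1, which adds the xylose that starts the chain, had a log2 fold change of -0.66 (adjusted p = 0.216), B4galt7 of -0.37 (adjusted p = 0.273) and B3galt6 of 0.088 (adjusted p = 0.905). Among 15 enzymes for chondroitin and dermatan sulfate, 1 was lower and 1 was higher at an unadjusted p under 0.05 (6.28% and 9.29% of all genes tested). The median was -0.062. The sulfotransferase genes Chst7 and Chst3 both had a log2 fold change of 0.64 (adjusted p = 0.216 and 0.368), and Chpf2 and Dsel both had -0.35 (adjusted p = 0.277 and 0.329). The 6 enzymes for keratan sulfate, the chain of fibromodulin and lumican, had a median of 0.10. At that threshold 1 of them was lower and 1 was higher (6.28% and 9.29% of all genes tested). These were Chst2 (log2 fold change -0.72, adjusted p = 0.222) and B3gnt2 (0.44, adjusted p = 0.266), while Chst1 was at 0.29 (adjusted p = 0.411) and B4galt4 at -0.17 (adjusted p = 0.752).

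Of 15 tested ligands and receptors of SLRPs, 1 was lower and 3 were higher at an unadjusted p under 0.05 (6.28% and 9.29% of all genes tested). Their median log2 fold change was -0.063. Igf1r, a receptor that decorin binds, was at 0.51 (adjusted p = 0.149) and P2rx7, which takes part in biglycan signalling, at 0.74 (adjusted p = 0.222). Bmp4 was at -0.99 (adjusted p = 0.171) and Tlr2, a receptor of biglycan, at -0.51 (adjusted p = 0.424). Of 10 proteases that process or cleave SLRPs and their cofactors, 2 were lower and 1 was higher at an unadjusted p under 0.05 (6.28% and 9.29% of all genes). The higher one was Tll1, a relative of Bmp1, the protease that removes the propeptide of biglycan, with a log2 fold change of 1.64 (adjusted p = 0.0831, where 1.52% of all genes were higher at an adjusted p under 0.1). Adamts4 and Adamts5, the aggrecanases, were at -0.59 and -0.33 (adjusted p = 0.276 and 0.290). Mmp3 was at 0.47 (adjusted p = 0.698), on only 8 to 19 reads per library.

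**Figure D5:**
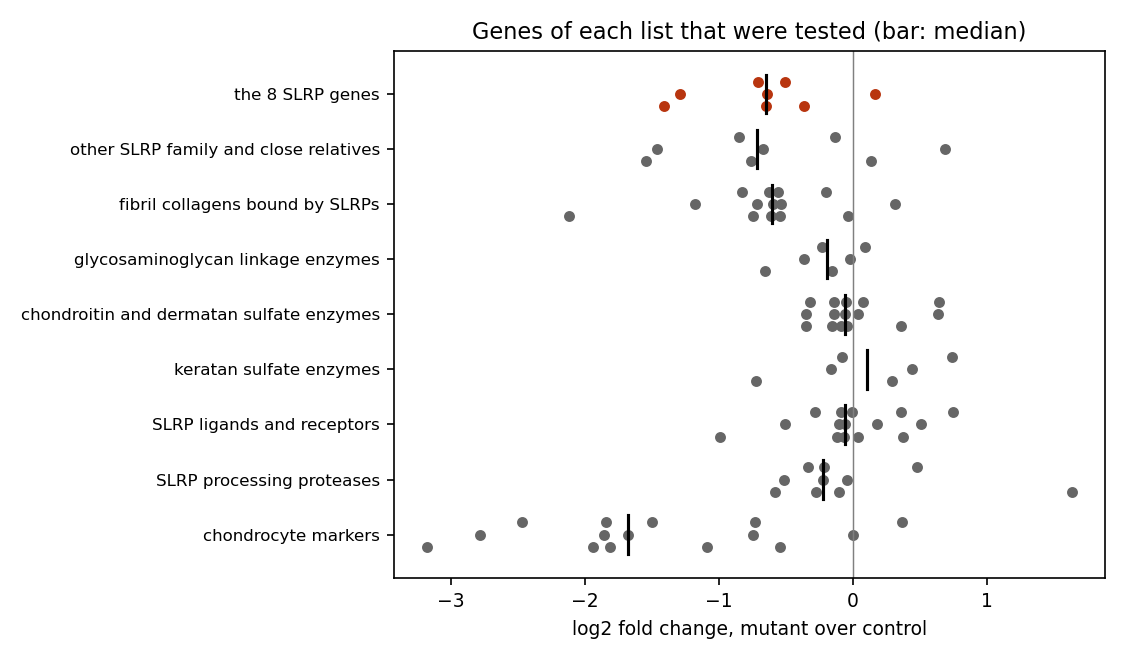
Log2 fold change (mutant over control) of each tested gene in the 8 SLRP genes (red) and in 8 other lists (grey), with a black bar at the median of each list. The medians of the SLRP genes, their relatives and the collagens that SLRPs bind lie between -0.71 and -0.61. Those of the enzyme, ligand and protease lists lie between -0.22 and 0.10, and that of the chondrocyte markers is at -1.68. The collagen list is labelled fibril collagens but also holds collagens VI, XII and XIV. Col2a1 is in both the collagen list and the chondrocyte markers.

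Marker genes of chondrocytes and of other cell types differed between the libraries too. Of 15 chondrocyte markers, 9 were lower at an adjusted p under 0.1 (0.503% of all tested genes were). Among them were Col9a1 and Cnmd (named Lect1 in the files) with log2 fold changes of -1.85 and -1.86, and Comp was at -1.68 (adjusted p = 0.142). Sox6 and Sox5 were at 0.0030 and 0.37, and the Sox6 value was below 0 under other scalings. Of 10 fibroblast and perichondrium markers, 7 had a log2 fold change below 0 (48.6% of all tested genes had), with a median of -0.20. Their summed RPKM was 899 and 975 in the controls and 1367 and 1408 in the mutants, where Thy1 alone was at 219 and 341 against 609 and 832. The log2 fold change of Thy1 was 1.32 and that of Dpt -2.13, while Prrx1, Postn and Mfap5 were at 0.19, 0.076 and -0.28. The sum of 6 tendon markers, a list that includes Fmod, was 398 and 221 in the controls and 205 and 225 in the mutants, so only control 1 stood apart, and Mkx, Scx and Tnmd were at 0.81, 0.032 and -0.58. Of 6 tested osteoblast markers, 5 were lower in both mutants than in both controls (22.8% of all tested genes were), with a median log2 fold change of -0.98. Their listed sum was 497 and 551 against 511 and 654 RPKM, most of it Spp1 (310 and 468 against 479 and 600.4 RPKM, log2 fold change 0.43), while Alpl was at -2.06 and Sp7 at -1.11. Ibsp, named after its values were seen, was at 70.7 and 16.7 against 4.62 and 11.8 RPKM (log2 fold change -2.48). Striated muscle markers summed to 98.5 and 33.4 RPKM in the controls and 160 and 181 RPKM in the mutants, with Des at 1.58, Myod1 at 2.51, Acta1 at 1.25 and Ckm at -1.49. Macrophage markers summed to 21.0 and 17.8 against 8.13 and 11.4 RPKM, with C1qb, Lyz2 and Cd68 at -1.61, -1.43 and -0.38. Endothelial markers summed to at most 1.52 RPKM in any library, with Kdr, Tek and Cdh5 at 1.32, -1.74 and -1.13. No listed marker was at 0 in all 4 libraries. The part of these cell type differences in the SLRP levels was not tested.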

How the data were processed

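RNA of 2 control and 2 mutant cultures was sequenced commercially. For each library, the authors deposited raw read counts by gene, the RPKM (the count scaled by gene length and by the reads counted in the library) and the percent of each gene covered by reads (84.12% to 100.0% for the members), on which no test was run. The submitters' processing notes name mm9 and SAMtools, and the aligner, counter and annotation are not given in the sources used here. A gene absent from a library was given a count of 0.

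In R 4.3.3, edgeR 4.0.16 (quasi-likelihood, robust, TMM scaling) compared the groups for genes reaching 10 counts in 2 or more libraries, and p-values were adjusted by Benjamini-Hochberg over all 14123 genes. The TMM factors were between 0.966 and 1.03. Alternatives were DESeq2 1.42.0, other scalings and filters, limma 3.58.1 on log2(RPKM + 1) and log2(RPKM + 0.1), a replicate block, and leaving out each library. The edgeR and DESeq2 fits, but not limma, were tested on simulated counts with a fixed spread smaller than that between the controls.

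Replicates differed by more than sampling noise (chi-square per degree of freedom 51.5 between controls, 24.9 between mutants), so each library was counted separately. The members and gene lists were chosen with earlier results of these data known. All 8 members and all relatives are named, and of each other list the 2 genes with the smallest p in each direction, plus the 2 most abundant markers. Following the counts at an unadjusted p, and of groups that do not overlap, through the alternatives was added after seeing the data.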

Additional observations from a re-analysis of the deposited data

How the results depend on the processing

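The sign of the log2 fold change of each of the 8 SLRP genes was kept under the 12 alternatives. Of the 96 values, 88 stayed on the same side of an adjusted p of 0.05, and the other 8 moved past it. SLRP genes called lower numbered 0 in edgeR with all libraries, 1 in DESeq2 and 0 to 6 with 1 library left out (the spread is then that of the other pair), 6 of them without control 2 and 1 (Aspn) without mutant 1. At an unadjusted p under 0.05 they numbered 5 (6.28% of all genes tested were lower), and 0 to 7 with 1 library left out (1 without mutant 1, 0 without mutant 2). The share of all genes lower at that threshold also differed between these fits. It was largest without control 2, the fit with 7 SLRP genes, and smallest without mutant 2. Genes called higher and lower among all genes numbered 0 and 0 in edgeR, 434 and 263 in DESeq2, 6 and 2 with total counts as the scale, 225 and 61 without a filter, and 68 to 1296 and 37 to 1444 with 1 library left out. The cause was not tested.

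The median log2 fold change of the 8 genes lay between -0.86 and -0.42 with 1 library left out. The labels do not say whether the replicate numbers pair the libraries. The difference between replicates 1 and 2 had a correlation of -0.042 between the groups across genes. That value showed no shared shift, but it cannot show that the libraries were unpaired. With the replicate block, 84 genes were called higher and 33 lower, 0 of them SLRP genes (Dcn had an adjusted p of 0.0637 and Aspn of 0.0966).

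The log2 ratio of the summed RPKM was -0.046, and from -0.14 to 0.060 with 1 library left out (above 0 without control 1). Signs also reversed with 1 library left out for Podn (-0.53 to 0.36), B3galt6 (-0.17 to 0.31), Mfap5 (-0.57 to 0.018), Postn (-0.30 to 0.38), Scx (-0.30 to 0.40), Ckm (-2.55 to 3.18) and Sox6 (-0.039 to 0.055). Sox6 was also at -0.013 in DESeq2, -0.0025 with upper quartile factors and -0.0094 without a filter. Omd, with 190 to 251 reads per library, has the least depth of the 8 genes.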
